A study of Mus musculus with 6 samples.

Results

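The enzymes of cholesterol, fatty acid and triglyceride synthesis are described here in mouse hepatocytes exposed to GW4064, a compound that activates FXR, the nuclear receptor for bile acids, or to its solvent DMSO. The 37 genes were chosen by symbol from a fixed list of lipid synthesis genes under SREBP control, and each was represented by 1 probe set, out of 22180 genes measured. They formed a sterol arm of 17 genes and a fatty acid arm of 20 genes.

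Primary hepatocytes, which are liver parenchymal cells kept in short-term culture, came from wild-type adult male C57Bl/6 mice and were held in serum-free William's medium. Both groups were treated for 4 h, the GW4064 group with 2 µM of the agonist and the DMSO group with solvent, and each had 3 arrays numbered 1 to 3. The design text names 3 independent preparations, and no label states which number belongs to which preparation or how many mice gave each. One-colour Affymetrix MoGene-2_0-st arrays gave log2 intensities, so a difference of 1 is a doubling.

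Cholesterol synthesis starts with the mevalonate pathway, passes through squalene and lanosterol, and ends in a series of sterol modifications. Fatty acid synthesis turns cytosolic acetyl-CoA into palmitate, which is elongated, desaturated and esterified to glycerol. The transcription factor SREBP-2 mainly drives the first set of genes and SREBP-1c the second, and both are held in the endoplasmic reticulum by INSIG proteins when sterols are plentiful. In mouse liver FXR agonists are known to lower SREBP-1c through the repressor SHP.

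Known FXR target genes responded in every pair of arrays. Abcb11, the bile salt export pump gene, had log2 levels of 8.14, 7.80 and 7.96 in GW4064 replicates 1, 2 and 3, against 5.09, 4.83 and 4.74 in the DMSO replicates (limma adjusted p = 3.70e-05), and Nr0b2, the gene of SHP, rose 5.18-fold (adjusted p = 1.17e-04). The median intensities of the 6 arrays spanned 0.053. The summed level of 8 hepatocyte markers was 14.01 to 14.06 in GW4064 arrays and 14.07 to 14.15 in DMSO arrays, on the log2 scale, a sum led by Alb (12.82 with GW4064, 12.85 in DMSO). On average 2 of the 8 were higher and 6 lower with GW4064. Of these, Hnf4a differed most and went the other way from the sum, 1.46-fold higher with all GW4064 arrays above all DMSO arrays (adjusted p = 0.393, or 0.151 with the block). In bulk samples, fewer cells of a type and less RNA per cell cannot be told apart.

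GW4064 moved no lipid synthesis gene past the threshold of a limma adjusted p under 0.05, with or without the replicate number as a block, against 0.0496% of all genes higher and 0% lower without the block and 0.0721% higher and 0.00902% lower with it (0.0812% in either direction). At an unadjusted p under 0.05 there were 2 higher members (2.6% of all genes) and 1 lower (3.06%), and with the block 5 higher (4.01%) and 2 lower (5.12%). Those 7 were Fasn, Pnpla3, Agpat2, Hsd17b7 and Mvd on the higher side and Lpin1 and Dgat2 on the lower side. On average 25 of the 37 were higher with GW4064, against 44.6% of all genes, and the median log2 difference was 0.057, against -0.016 over all genes. Leaving out DMSO replicate 3 lowered the count of higher members to 12, and leaving out GW4064 replicate 1 lowered it to 14. It rose to 32 without GW4064 replicate 3 and to 28 without DMSO replicate 1. Leaving out 1 array breaks a pair, and without a whole pair the count was 23 to 27. In same-numbered pairs 18 members were higher in all 3 pairs, which holds for 12.6% of all genes, and 4 were lower in all 3, which holds for 18.6%. Members share arrays, so these counts are not independent of each other.

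**Figure D1:**
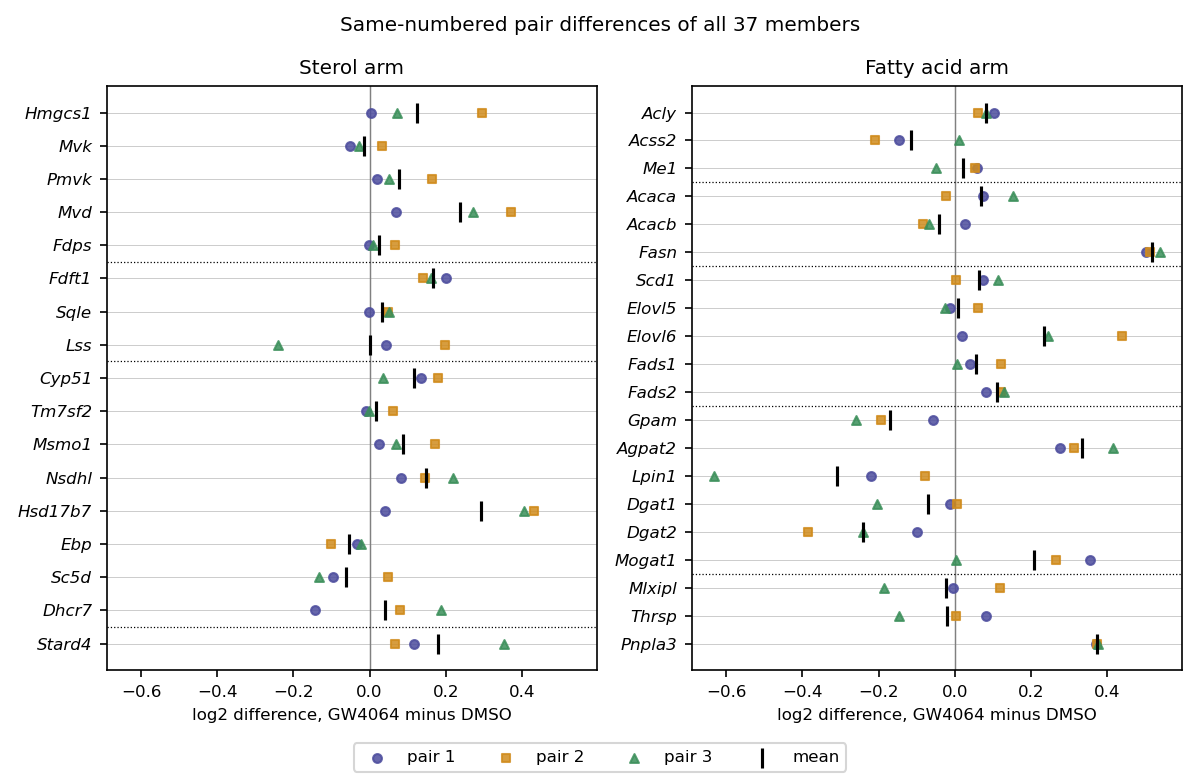
Each row is a gene, and symbols give its log2 difference, GW4064 minus DMSO, in same-numbered pairs 1, 2 and 3, with the mean as a black bar. Dotted lines part the biochemical steps. Fasn and Pnpla3 show 3 nearly equal pair values, whereas Hsd17b7 lies near 0 in pair 1 and above 0.4 in pairs 2 and 3.

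The sterol arm was higher on average in 13 of 17 genes, with a median log2 difference of 0.078. With 1 array left out, which breaks a pair, the median was -0.073 without GW4064 replicate 1, -0.047 without DMSO replicate 3 and up to 0.27 without DMSO replicate 1. By pairs, 10, 16 and 12 genes were higher in pairs 1, 2 and 3, and the median differences were 0.020, 0.14 and 0.050. All 17 genes had overlapping groups, as most genes did. Over all genes, 4.58% had every GW4064 array above every DMSO array and 6.19% had every one below. In the mevalonate steps 4 of 5 genes were higher on average, in the squalene and lanosterol steps 2 of 3, in the conversion of lanosterol to cholesterol 6 of 8, and Stard4 was higher as well. The 95% intervals of the 17 folds ran from 0.696 at the lowest bound (Lss) to 1.84 at the highest (Hsd17b7) without the block. With it they ran from 0.835 (Sc5d) to 1.46 (Hsd17b7). The block lowered the median SE of the 17 genes from 0.19 to 0.080, and that over all genes from 0.11 to 0.090. SEs of single genes are given without the block unless stated.

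Hmgcs1 encodes the cytosolic HMG-CoA synthase that commits carbon to the mevalonate pathway. Its log2 levels were 10.26, 9.85 and 9.49 in GW4064 replicates 1, 2 and 3, against 10.26, 9.56 and 9.42 in DMSO replicates 1, 2 and 3. The groups overlapped, replicate 1 was highest in both, and the difference was 0.12 (SE 0.24, adjusted p = 0.998). Mvd, which decarboxylates mevalonate diphosphate to the isoprene unit, had 6.17, 6.13 and 5.86 with GW4064, against 6.10, 5.76 and 5.59 in DMSO. Its difference of 0.24 (SE 0.15, adjusted p = 0.961) was higher in all 3 pairs, with 0.070, 0.37 and 0.27. Fdps, the farnesyl diphosphate synthase gene, had 9.19, 8.67 and 8.51 with GW4064 and 9.19, 8.60 and 8.50 in DMSO, so that same-numbered arrays nearly coincided. The mevalonate kinase gene Mvk and the phosphomevalonate kinase gene Pmvk had differences of -0.015 (SE 0.11) and 0.078 (SE 0.12).

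Among the squalene and lanosterol genes, Fdft1, the squalene synthase gene, was higher in all 3 pairs. It had 9.38, 8.90 and 8.83 with GW4064, against 9.18, 8.76 and 8.67 in DMSO. Its pairs differed by 0.20, 0.14 and 0.16 (mean 0.17, SE 0.18, adjusted p = 0.998). With the block the SE was 0.077 (adjusted p = 0.586). Sqle, the squalene epoxidase gene, differed by 0.032 (SE 0.19), with levels of 8.47, 7.94 and 7.94 in GW4064 arrays and 8.47, 7.89 and 7.89 in DMSO arrays. Lss, which closes the sterol ring system to lanosterol, had pair differences of 0.043, 0.20 and -0.24, which cancelled in the mean.

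Hsd17b7, a ketoreductase gene of the sterol demethylation steps, held the largest mean difference of the arm. Its levels were 8.30, 7.97 and 7.62 in GW4064 replicates 1, 2 and 3, against 8.26, 7.54 and 7.21 in the DMSO replicates. Pair 1 was nearly level at 0.039, and pairs 2 and 3 differed by 0.43 and 0.41 (mean 0.29, SE 0.26, adjusted p = 0.998, or 0.494 with the block). Nsdhl, which works at the same steps, had 9.76, 9.31 and 8.99 with GW4064, against 9.68, 9.16 and 8.77 in DMSO, and was higher in all pairs (0.15, SE 0.25). The lanosterol demethylase gene Cyp51 (0.12, SE 0.22) and the sterol methyl oxidase gene Msmo1 (0.088, SE 0.19) were also higher in all 3 pairs. Ebp, the sterol isomerase gene, was the 1 sterol gene lower in all 3 (-0.053, SE 0.17).

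The other late steps gave values around 0. The sterol reductase gene Tm7sf2 differed by 0.017 (SE 0.22), the lathosterol oxidase gene Sc5d by -0.061 (SE 0.11) and Dhcr7, whose enzyme makes cholesterol from 7-dehydrocholesterol, by 0.041 (SE 0.22). Stard4, which encodes a carrier of sterols between membranes, had 5.93, 5.79 and 5.66 with GW4064, against 5.81, 5.72 and 5.30 in DMSO (0.18, SE 0.14, adjusted p = 0.987). It was higher in all 3 pairs, most in pair 3 at 0.35.

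Promoter windows from RefSeq (GRCm38.p6, 250 bases before to 50 after each start) were found for 29 of the 37 genes, 13 of the sterol and 16 of the fatty acid arm. A set of 5 short motifs was searched on both strands, with overlapping matches counted separately. They were TCACNCCAC, a form of the sterol regulatory element bound by SREBP, CCAAT, the box of its partner NF-Y, GGGCGG, bound by Sp1, the E-box CACGTG, and the FXR repeat, 2 copies of AGGTCA facing each other with 1 base between. CCAAT was in 13 of 16 sterol windows (81.2%) and 11 of 19 fatty acid windows (57.9%), against 37.4% of all 32851 windows. GGGCGG was in 13 of 16 sterol windows (81.2%) and 8 of 19 fatty acid windows (42.1%), against 35.7% of all. TCACNCCAC was in 1 window of each arm, those of Hmgcs1 and Mlxipl, against 1.24% of all, and CACGTG in 3 sterol and 2 fatty acid windows (7.15% of all). The FXR repeat was in no member's window and in 0.00913% of all.

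The windows below belong to the sterol genes with the smallest blocked p among those with an entry, and show the letters that many windows of the arm shared. Capitals mark every match of the motifs, of which ATTGG and CCGCCC are CCAAT and GGGCGG read on the other strand. The windows lie at chr1:169969156-169969455 (minus strand) for Hsd17b7, chr8:122443373-122443672 (minus strand) for Mvd and chrX:72918271-72918570 (plus strand) for Nsdhl, each printed 5′ to 3′ on the strand of the gene.
Hsd17b7: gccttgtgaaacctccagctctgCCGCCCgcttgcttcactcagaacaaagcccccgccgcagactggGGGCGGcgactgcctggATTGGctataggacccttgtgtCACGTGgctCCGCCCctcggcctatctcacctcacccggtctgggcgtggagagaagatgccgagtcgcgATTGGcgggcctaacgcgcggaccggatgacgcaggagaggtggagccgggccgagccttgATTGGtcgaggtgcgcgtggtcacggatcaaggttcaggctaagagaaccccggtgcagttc
Mvd: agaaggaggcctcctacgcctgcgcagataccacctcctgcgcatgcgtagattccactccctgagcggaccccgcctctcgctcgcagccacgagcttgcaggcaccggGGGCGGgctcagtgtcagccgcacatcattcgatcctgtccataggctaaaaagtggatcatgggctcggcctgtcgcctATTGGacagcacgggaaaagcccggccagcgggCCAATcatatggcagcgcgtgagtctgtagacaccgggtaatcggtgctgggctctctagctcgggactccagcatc
Nsdhl: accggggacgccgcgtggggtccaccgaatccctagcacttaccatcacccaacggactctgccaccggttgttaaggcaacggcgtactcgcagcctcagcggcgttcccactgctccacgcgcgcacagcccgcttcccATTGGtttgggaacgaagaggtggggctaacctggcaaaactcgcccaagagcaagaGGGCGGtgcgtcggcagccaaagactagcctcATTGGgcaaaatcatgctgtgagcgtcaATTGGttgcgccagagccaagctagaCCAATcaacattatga

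In these windows Hsd17b7 held 3 CCAAT boxes, 3 GGGCGG boxes and an E-box at -143 from the start, Mvd 2 CCAAT boxes and 1 GGGCGG box, and Nsdhl 4 CCAAT boxes and 1 GGGCGG box. A match describes letters and not a bound site.

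The level of the sterol arm differed mainly between replicate numbers and in the same way in both groups. All 17 genes were higher in replicate 1 than in replicate 3 in the GW4064 and in the DMSO arrays, which holds for 32% of all genes. Replicate 1 was highest and replicate 3 lowest on average in 15 of the 17, against 18.3% of all genes. The median gap between replicate 1 and replicate 3 was 0.55 with GW4064 and 0.57 in DMSO, against 0.0079 and 0.016 over all genes. Relative to each gene's own mean over 6 arrays, the median sterol gene stood at 0.36, 0.030 and -0.20 in GW4064 replicates 1, 2 and 3 and at 0.33, -0.13 and -0.28 in the DMSO replicates.

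**Figure D2:**
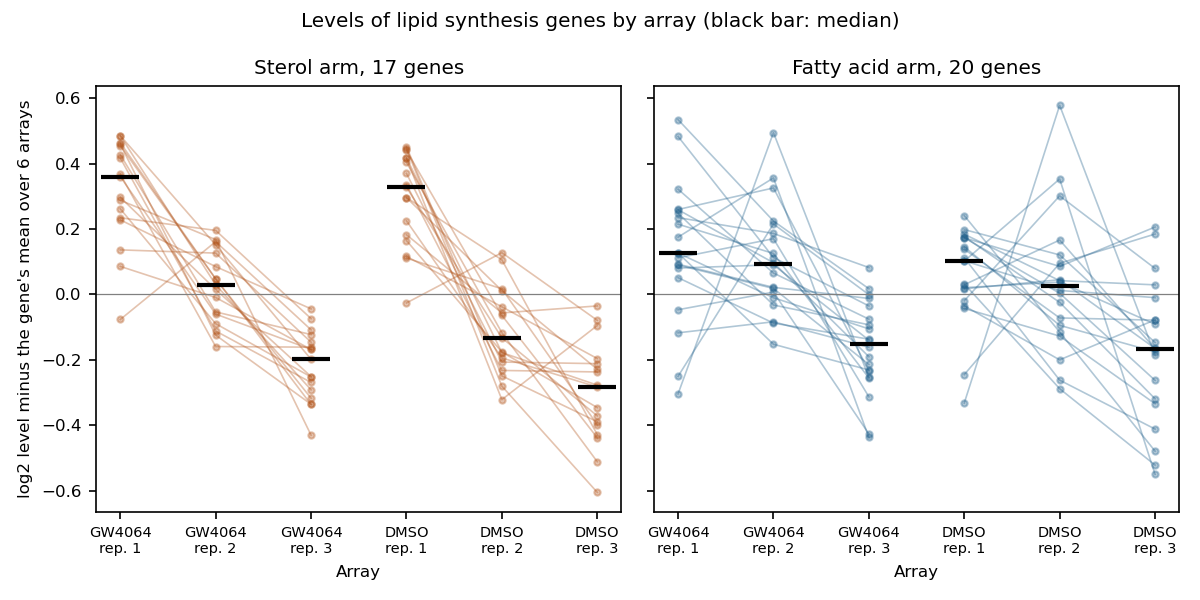
Lines join the arrays of one group for each gene of the sterol arm (17 genes) and the fatty acid arm (20 genes), as the log2 level minus the gene's own mean over 6 arrays, with medians as black bars. In both groups the sterol medians are highest in replicate 1 (0.36 with GW4064, 0.33 in DMSO) and lowest in replicate 3.

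An F test of replicate number in the blocked limma fit, added after this pattern was seen, called 2 of 17 sterol genes, Nsdhl (adjusted p = 0.0379) and Tm7sf2 (0.0469), against 1.07% of all genes. Fdps (0.0507), Cyp51 (0.0531) and Hmgcs1 (0.0618) missed the threshold. The call count depended on the setting. It was 12 of 17 with an intensity trend and robust prior (8.37% of all genes called), 12 without genes under the median level (6.03%), 4 with quantile normalization (1.28%), and 0 to 1 with arrays left out. The range of a gene over replicate numbers was larger than its GW4064 difference in all 17, although this holds for 78.8% of all genes, and its median was 0.55, against 0.19 over all genes. Across the 6 arrays the median correlation between 2 sterol genes was 0.87 over 136 gene pairs, where all points share the same arrays and replicate numbers. Mvk stood apart, with a median correlation of 0.035 to the others and its highest level in replicate 2.

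Marker sums of other cell types also differed over replicates, in orders that varied by cell type. The Kupffer and macrophage sum (6 genes, 3 higher with GW4064) was 9.94, 8.68 and 10.02 in GW4064 replicates 1, 2 and 3, and 9.72, 8.76 and 10.10 in DMSO replicates, lowest in replicate 2. It was led by Cd68 (9.42 with GW4064, 9.39 in DMSO). The more specific Clec4f averaged 3.66 with GW4064 and 3.90 in DMSO. The bile duct sum (5 genes, 4 higher with GW4064) was 7.96, 8.22 and 8.44 with GW4064 and 7.67, 7.90 and 8.01 in DMSO, lowest in replicate 1. It was led by Sox9, which averaged 7.76 with GW4064 and 7.31 in DMSO (0.45, SE 0.17, adjusted p = 0.858, or 0.204 with the block). Epcam averaged 2.71 with GW4064 and 2.66 in DMSO, and Cftr 2.08 with GW4064 and 2.29 in DMSO. For 5 endothelial markers (2 higher with GW4064) the sum was 7.28, 7.42 and 7.12 in GW4064 replicates 1, 2 and 3. In the DMSO replicates it was 7.27, 7.51 and 7.19. For 2 lymphocyte markers (0 higher) it was 3.72, 3.82 and 3.63 with GW4064 and 4.14, 3.77 and 3.93 in DMSO. Both of these sums were higher in replicate 1 than in replicate 3 in both groups, as the sterol genes were. The sum of 6 stellate cell markers (5 higher) was 6.07, 6.19 and 6.30 with GW4064 and 6.05, 6.19 and 6.08 in DMSO. Over all arrays the lymphocyte markers Ptprc and Cd3e averaged 2.50 and 3.10, and the median stellate marker 3.37. These lay below the median gene level of 4.20. No marker passed the threshold, and the part of these cells in the replicate differences was not tested.

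**Figure D3:**
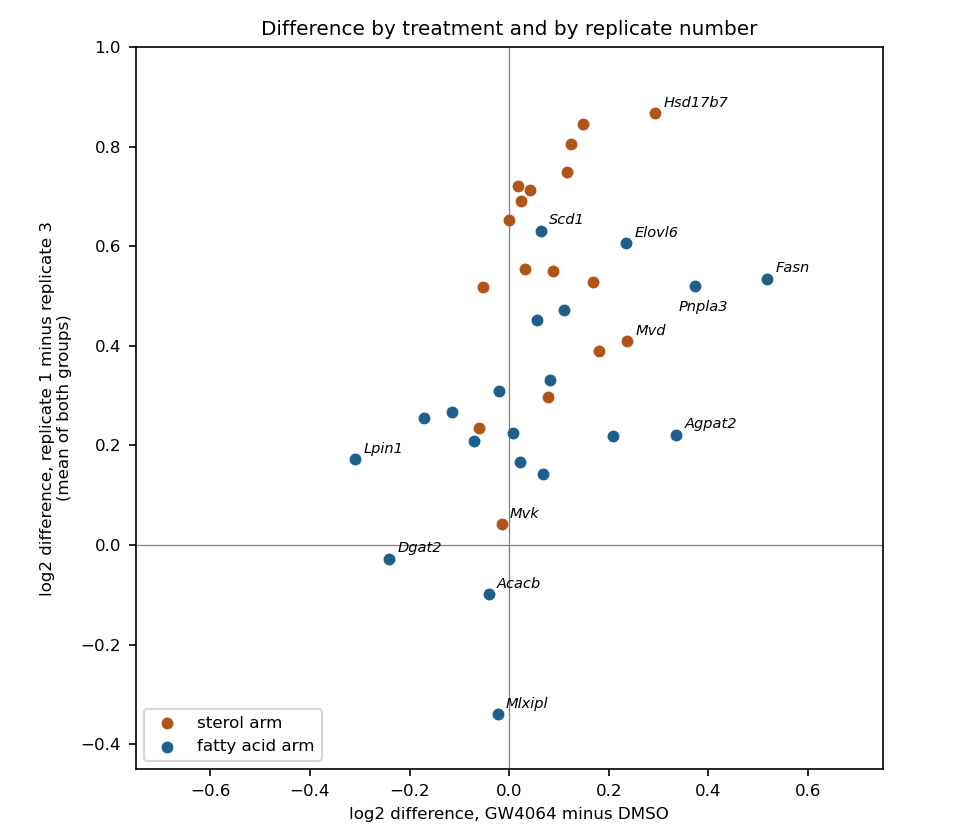
Each point is a gene of the sterol or fatty acid arm, with its log2 difference between GW4064 and DMSO on the x axis and between replicates 1 and 3, averaged over both groups, on the y axis. All 17 sterol genes lie above 0 on the y axis, and Fasn and Pnpla3 lie far from 0 on both.

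In the fatty acid arm, on average 12 of 20 genes were higher with GW4064, with a median log2 difference of 0.039, and 13, 14 and 11 were higher in pairs 1, 2 and 3. The median was negative without GW4064 replicate 1, without GW4064 replicate 2 and without DMSO replicate 3, down to -0.025. All 5 elongation and desaturation genes were higher on average, whereas 4 of 6 triglyceride genes were lower, and the difference between steps was not tested. Of those 5, only Elovl6 kept its sign with each array or pair left out. The arm held 9 genes higher in all 3 pairs (45%, against 12.6% of all genes). It held 3 lower in all 3 (15%, against 18.6% of all genes), which were Gpam, Lpin1 and Dgat2. The 95% intervals of the 20 folds ran from 0.638 (Acacb) to 1.87 (Fasn) without the block and from 0.659 (Lpin1) to 1.63 (Fasn) with it. Between the arms the medians differed by 0.039, sterol minus fatty acid, with -0.031, 0.084 and 0.046 in pairs 1, 2 and 3, an SD of 0.058 over the pairs. The sign turned between pairs, so the arms did not stand apart beyond the spread between pairs.

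Fasn, which encodes fatty acid synthase, had the largest difference of the 37. Its log2 levels were 8.98, 8.67 and 8.46 in GW4064 replicates 1, 2 and 3, against 8.47, 8.15 and 7.92 in DMSO replicates 1, 2 and 3. The groups overlapped only in that GW4064 replicate 3 lay just below DMSO replicate 1, and the pairs differed by 0.50, 0.51 and 0.54. The mean fold was 1.43 with a 95% interval of 1.10 to 1.87 (adjusted p = 0.771), or 1.26 to 1.63 with the block (adjusted p = 0.151). Acaca and Acacb, the acetyl-CoA carboxylase genes that supply malonyl-CoA, differed by 0.068 (SE 0.097) and -0.041 (SE 0.27). Acacb was set apart by replicate number, with 4.79, 5.59 and 4.84 in GW4064 arrays and 4.76, 5.67 and 4.91 in DMSO arrays (F test adjusted p = 0.0296).

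The genes that supply acetyl-CoA and NADPH differed little. Acly, the ATP citrate lyase gene, was higher in all 3 pairs by 0.10, 0.062 and 0.083 (mean 0.082, SE 0.13). Acss2, which makes acetyl-CoA from acetate, had 6.78, 6.64 and 6.59 with GW4064, against 6.93, 6.85 and 6.58 in DMSO (-0.12, SE 0.12), and the malic enzyme gene Me1 differed by 0.021 (SE 0.10).

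Of the elongation and desaturation genes, Elovl6, which lengthens palmitate, had 9.23, 9.29 and 8.73 with GW4064, against 9.21, 8.85 and 8.49 in DMSO. Its pair differences of 0.019, 0.44 and 0.25 had the same order as those of Mvd and Hsd17b7, with pair 1 the smallest and pair 2 the largest (mean 0.23, SE 0.20, adjusted p = 0.995). Scd1, the stearoyl-CoA desaturase gene, had 10.27, 10.45 and 9.66 with GW4064 and 10.20, 10.45 and 9.55 in DMSO, so that its spread lay between replicate numbers (F test adjusted p = 0.0335). Fads1 and Fads2, desaturases of polyunsaturated fatty acids, were higher in all 3 pairs with means of 0.057 (SE 0.15) and 0.11 (SE 0.15). Elovl5, an elongase of polyunsaturated chains, differed by 0.0077 (SE 0.11).

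Triglyceride synthesis held values on both sides. Agpat2 makes phosphatidic acid, and was the 1 member whose GW4064 arrays (8.91, 8.86 and 8.76) all lay above its DMSO arrays (8.63, 8.55 and 8.34), which holds for 4.58% of all genes. The difference amounted to 1.26-fold (95% interval 1.07 to 1.49, adjusted p = 0.761). Gpam, the mitochondrial enzyme of the preceding acylation of glycerol phosphate, had 9.75, 9.48 and 9.40 with GW4064, against 9.81, 9.67 and 9.66 in DMSO (-0.17, SE 0.12, adjusted p = 0.963).

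Lpin1, the phosphatidic acid phosphatase gene that acts after Agpat2, had 7.16, 7.22 and 6.79 in GW4064 arrays, against 7.38, 7.30 and 7.42 in DMSO arrays. Dgat2, which adds the last acyl chain, had 7.38, 7.41 and 7.34 with GW4064, against 7.48, 7.80 and 7.58 in DMSO. In these 2 members all GW4064 arrays lay below all DMSO arrays, which holds for 6.19% of all genes. Their differences were -0.31 (SE 0.13, adjusted p = 0.863) for Lpin1 and -0.24 (SE 0.11, adjusted p = 0.881) for Dgat2, and without pair 3 that of Lpin1 was -0.15.

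Dgat1, the other gene of the last acylation, differed by -0.070 (SE 0.11). Mogat1, a monoacylglycerol acyltransferase gene, had 3.42, 3.16 and 3.02 with GW4064, against 3.06, 2.89 and 3.02 in DMSO, below the median gene level of 4.20. Its pairs differed by 0.36, 0.27 and 0.0021 (mean 0.21, SE 0.12).

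**Figure D4:**
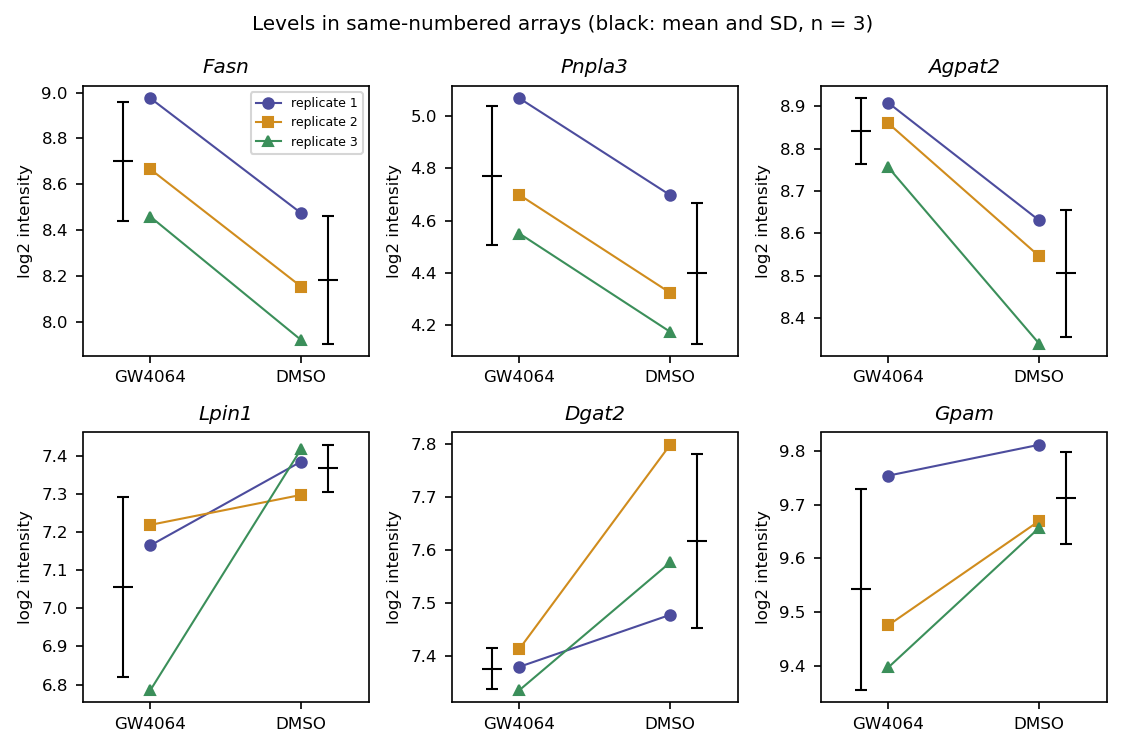
Log2 intensities of Fasn, Pnpla3, Agpat2, Lpin1, Dgat2 and Gpam in GW4064 and DMSO arrays, with lines joining same-numbered arrays and the mean and SD (n = 3) in black. Lines for Fasn and Pnpla3 are nearly parallel, and all lines for Lpin1, Dgat2 and Gpam run lower in GW4064.

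Among the regulators and lipid droplet genes, Pnpla3, which encodes a lipid droplet protein, repeated the pattern of Fasn. It had 5.07, 4.70 and 4.55 in GW4064 replicates 1, 2 and 3, against 4.70, 4.32 and 4.17 in DMSO replicates. The groups overlapped, but every pair differed by 0.37 to 0.38. The mean fold of 1.30 had a 95% interval of 0.995 to 1.69 (adjusted p = 0.888), or 1.14 to 1.47 with the block (adjusted p = 0.265). Mlxipl, the gene of the glucose-sensing factor ChREBP, differed by -0.023 (SE 0.15) and Thrsp, a lipogenic gene known as Spot 14, by -0.020 (SE 0.15).

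The corresponding fatty acid windows are those of Fasn at chr11:120824498-120824797 (minus strand), Pnpla3 at chr15:84167566-84167865 (plus strand) and Agpat2 at chr2:26604368-26604667 (minus strand), chosen and marked in the same way.
Fasn: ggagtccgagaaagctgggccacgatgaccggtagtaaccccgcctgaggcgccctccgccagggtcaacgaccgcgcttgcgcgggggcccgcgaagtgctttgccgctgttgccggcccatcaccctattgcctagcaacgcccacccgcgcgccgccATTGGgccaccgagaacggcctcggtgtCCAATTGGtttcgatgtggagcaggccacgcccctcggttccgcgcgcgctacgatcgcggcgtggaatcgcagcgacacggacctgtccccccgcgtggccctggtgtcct
Pnpla3: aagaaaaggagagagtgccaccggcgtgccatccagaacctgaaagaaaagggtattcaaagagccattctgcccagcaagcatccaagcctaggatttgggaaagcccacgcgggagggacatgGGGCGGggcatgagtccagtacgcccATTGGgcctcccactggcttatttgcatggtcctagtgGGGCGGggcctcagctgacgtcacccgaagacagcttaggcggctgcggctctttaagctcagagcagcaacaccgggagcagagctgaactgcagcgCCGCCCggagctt
Agpat2: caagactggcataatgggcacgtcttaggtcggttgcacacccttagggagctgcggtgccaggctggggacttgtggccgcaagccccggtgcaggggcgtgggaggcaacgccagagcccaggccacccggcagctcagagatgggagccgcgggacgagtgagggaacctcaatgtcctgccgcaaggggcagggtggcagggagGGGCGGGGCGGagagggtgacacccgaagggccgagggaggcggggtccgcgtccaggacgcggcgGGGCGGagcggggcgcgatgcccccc

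Fasn held 3 CCAAT boxes, 2 of them overlapping, and Pnpla3 1 CCAAT box and 3 GGGCGG boxes. Agpat2 held 3 GGGCGG boxes and none of the other 4 motifs.

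Adipocytes also use Fasn, Agpat2 and Pnpla3. The defining adipocyte marker Adipoq averaged 2.78 with GW4064 and 2.44 in DMSO, below the median gene level, with all GW4064 arrays above all DMSO arrays (difference 0.34, SE 0.091, adjusted p = 0.641), and Plin1 3.86 with GW4064 and 3.88 in DMSO. The summed level of both ranged from 4.34 to 4.56 in GW4064 arrays and from 4.26 to 4.45 in DMSO arrays, and its part in these results was not tested.

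Replicate number also marked the fatty acid arm, less uniformly. Replicate 1 exceeded replicate 3 in both groups in 16 of 20 genes, which holds for 32% of all genes. The median gap was 0.35 with GW4064 and 0.21 in DMSO, against 0.0079 and 0.016 over all genes. Mlxipl ran the other way, with 7.59, 8.05 and 7.84 with GW4064 and 7.59, 7.93 and 8.02 in DMSO. The F test called 2 of 20 genes, Acacb and Scd1, against 1.07% of all genes. Across the 6 arrays the median correlation between 2 fatty acid genes was 0.49 over 190 gene pairs, and between a sterol and a fatty acid gene 0.65 over 340.

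Other genes of these pathways were counted from a separate list. Of 8 measured genes that control SREBP activity or expression, 4 were higher on average, against 44.6% of all genes. Past the threshold 1 rose, against 0.0496% of all genes. Insig2, which encodes an anchor of the SREBPs in the endoplasmic reticulum, had 9.74, 9.76 and 9.69 in GW4064 arrays, against 8.88, 8.81 and 8.89 in DMSO arrays (1.83-fold, adjusted p = 0.0177). Insig1, its partner and itself an SREBP target, had 9.62, 9.14 and 9.04 with GW4064, against 9.49, 8.56 and 8.55 in DMSO. This was the same layout over pairs as Hsd17b7 (0.40, SE 0.26, adjusted p = 0.961). With the block the SE was 0.11 (adjusted p = 0.387). The SREBP genes Srebf1 and Srebf2 differed by -0.11 (SE 0.11) and 0.089 (SE 0.12).

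Ggps1, the geranylgeranyl diphosphate synthase gene and the 1 other sterol pathway gene measured here, differed by -0.10 (SE 0.13). Of 15 other fatty acid and triglyceride genes none passed, against 0.0496% of all genes. On average 2 of them were higher, against 44.6% of all genes, and 13 were lower. At an unadjusted limma p under 0.05 none stood out without the block, against 2.6% of all genes higher and 3.06% lower. With it 1 was higher (4.01% of all genes) and 2 were lower (5.12%). Plin2, a lipid droplet coat gene, had 10.38, 10.76 and 10.45 with GW4064, against 10.16, 10.59 and 10.13 in DMSO (0.24, SE 0.15, adjusted p = 0.961). With the block its SE was 0.080 (adjusted p = 0.481). Angptl8, a feeding-induced inhibitor of lipoprotein lipase, had 7.05, 7.54 and 7.02 with GW4064, against 7.30, 7.82 and 7.23 in DMSO (-0.25, SE 0.19, adjusted p = 0.977). With the block its SE was 0.077 (adjusted p = 0.437). Mogat2, a relative of Mogat1, had 4.74, 4.72 and 4.75 with GW4064, against 4.87, 4.88 and 5.19 in DMSO (-0.24, SE 0.11, adjusted p = 0.890). With the block its SE was 0.094 (adjusted p = 0.525).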

How the data were processed

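Total RNA from 6 cultures was labelled with biotin and hybridised to one-colour arrays, per the labels' protocols. The table that the authors deposited holds 1 log2 intensity for each probe set and array. The submitters' processing notes name RMA and Partek. Versions and the genome build are not given in the sources used here, and the log base was taken from the range of 0.94 to 13.07.

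Of 41345 probe sets, 23521 carry exactly 1 gene symbol in the platform annotation. The probe set with the highest mean was kept for each of 22180 genes. All 37 lipid genes had 1 such probe set, and their identifiers matched the RefSeq table.

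Groups were compared with limma 3.58.1 (lmFit and eBayes, R 4.3.3) on the deposited values, with no filter, and Benjamini-Hochberg adjustment ran over all 22180 genes. Intervals come from the moderated SE. With 3 arrays a group the smallest two-sided p of an exact permutation test is 0.1, so none was run. The number of arrays limits the precision, and since no label ties arrays to animals, p-values measure the spread between these samples.

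Deviations of same-numbered arrays from their group means correlated at 0.26, 0.34 and 0.45, which pairs the arrays by the rule used (over 0.1 in every pair). The pairing rests on the titles' numbers. The fits were tested on simulated data. Members, lists and motifs were chosen with earlier results of these data known, and arms are described by counts and medians without a test. All members are named, and the other pathway genes named are Insig1, Insig2, Srebf1, Srebf2 and those at an unadjusted p under 0.05 in either fit. Alternatives were the replicate block, 2 normalizations, 2 filters on dim genes, probe set averaging, another variance prior and leaving out each array or pair. Marker sums are log2 of summed linear intensities.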

Additional observations from a re-analysis of the deposited data

How the results depend on the processing

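No lipid synthesis gene was called under any of the 16 alternatives, with smallest adjusted p-values of 0.151 to 1.00. The count over all genes was 11, and became 18 with the replicate block, 17 with an intensity trend and robust prior, and 2 to 5 with arrays or pairs left out. The pairing by replicate number changed no member's call. The sterol median of 0.078 became -0.073 to 0.27 with arrays or pairs left out, the fatty acid median of 0.039 became -0.025 to 0.11, and their difference -0.062 to 0.18. Leaving out 1 array breaks a pair. The sterol median was negative without GW4064 replicate 1 (-0.073) and without DMSO replicate 3 (-0.047). Omitting DMSO replicate 1 gave 0.27, and omitting GW4064 replicate 3 gave 0.19. Without whole pairs it was 0.035 to 0.11, and under normalizations, filters and priors 0.078 to 0.099. The F test of replicate number, added after the data were seen, called 2 sterol genes (1.07% of all genes). It called 4 after quantile normalization (1.28%), 5 after centring (1.24%), 5 with the dimmest genes (below the 25th percentile) left out (1.7%), 12 without those under the median (6.03%) and 12 with the trend (8.37%). In the fatty acid arm it called 2, and 6 without genes under the median (6.03% of all genes) and 11 with the trend (8.37%). With arrays or pairs left out it called 0 to 1 sterol and 0 to 2 fatty acid genes.

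Members whose sign turned with arrays or pairs left out had these ranges of log2 difference. In the sterol arm they were Hmgcs1 -0.073 to 0.38, Mvk -0.10 to 0.045, Pmvk -0.00036 to 0.17, Fdps -0.18 to 0.24, Fdft1 -0.0040 to 0.32, Sqle -0.14 to 0.22, Lss -0.23 to 0.21, Cyp51 -0.086 to 0.31, Tm7sf2 -0.19 to 0.24, Msmo1 -0.070 to 0.28, Nsdhl -0.069 to 0.39, Ebp -0.20 to 0.082, Sc5d -0.12 to 0.015 and Dhcr7 -0.17 to 0.27. In the fatty acid arm they were Acly -0.021 to 0.18, Me1 -0.019 to 0.10, Acacb -0.30 to 0.24, Scd1 -0.20 to 0.30, Elovl5 -0.054 to 0.079, Fads1 -0.060 to 0.20, Fads2 -0.021 to 0.23, Dgat1 -0.13 to 0.019, Mlxipl -0.15 to 0.10 and Thrsp -0.11 to 0.13. The other 13 kept their sign, among them Fasn (0.38 to 0.66), Agpat2 (0.25 to 0.40), Pnpla3 (0.23 to 0.52), Lpin1 (-0.43 to -0.15) and Dgat2 (-0.31 to -0.15). Quantile normalization turned Mvk (0.0070), Lss (0.025), Mlxipl (0.00056) and Thrsp (0.0033), and centring turned Lss (0.015). The cause was not tested.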
